A study of Homo sapiens with 8 samples.

Results

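The 7 complex I subunit genes and the 2 ribosomal RNA genes of the human mitochondrial genome are described here in SH-SY5Y, an established neuroblastoma cell line, in which RPS29, a small-subunit protein of the cytosolic ribosome, was knocked down. The 9 genes were taken by name: MT-ND1, MT-ND2, MT-ND3, MT-ND4, MT-ND4L, MT-ND5 and MT-ND6 for complex I, and MT-RNR1 and MT-RNR2 for the rRNAs. All 9 are among the 17927 genes of the RNA-seq table, and 0 of the 9 are in the Ribo-seq table of 14019 genes, so the values below are RNA levels. The RNA-seq groups were SH-SY5Y cells with a short hairpin RNA against RPS29 (shRPS29, 2 libraries) and SH-SY5Y cells with a control hairpin (shCONT, 2 libraries). The series has 8 libraries in 4 groups, of which the other 4 are Ribo-seq. Both groups carry a hairpin, and the sources used here do not give the hairpin sequences, how they were delivered or for how long. The labels do not say whether replicates came from separate cultures, so p-values measure the spread between these libraries, which may be technical.

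Complex I passes electrons from NADH to ubiquinone and pumps protons across the inner mitochondrial membrane. Its membrane arm holds the subunits encoded in mitochondrial DNA. Its other subunits, including accessory ones of the membrane arm, are encoded in the nucleus and imported. Mitochondrial DNA is transcribed from both strands into long precursors that are cut, mostly at tRNAs, into single RNAs. The precursor of the heavy strand holds both rRNAs and every mRNA except that of MT-ND6, which is the protein gene of the light strand. On mitochondrial DNA (MT) of GRCh38.p14 the RefSeq table puts MT-RNR1 at positions 648 to 1601 and MT-RNR2 at 1671 to 3229, ahead of MT-ND1 at 3307 to 4262 and MT-ND2 at 4470 to 5511. MT-ND3 lies at 10059 to 10404, and MT-ND4L (10470 to 10766) overlaps MT-ND4 (10760 to 12137) by 7 bases, the pair being read from a shared mRNA. MT-ND5 (12337 to 14148) ends 1 base before MT-ND6 (14149 to 14673), so these neighbours on opposite strands abut. These genes have no introns.

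RNA-seq libraries held 19156104 and 17539104 counts in the knockdown and 18125164 and 18539460 in the controls. RPS29 stood at 7.53 and 6.46 CPM in the knockdown, against 136.9 and 160.1 CPM in the controls, which fits the labels of all 4 libraries. CPM here are counts per 1000000 counts, scaled between libraries by the trimmed mean of M values (TMM). Genes of the mitochondrial genome took 2.87 and 3.91% of the counts in the knockdown and 2.52 and 2.15% in the controls, with exact binomial 95% intervals that cover counting error only (3.90 to 3.92% for knockdown replicate 2, which stood apart). Knockdown replicate 2 had the highest level of all 9 genes, so each result below is also given without it where that changes it. Of 15 markers of noradrenergic neuroblastoma cells 14 passed the count filter, of which 2 rose, 5 fell and 7 were not called. Over all genes tested, 14.4% rose and 16.3% fell. Summed levels of these markers were 8805 and 8683 CPM in the knockdown and 9504 and 9776 CPM in the controls. The 2 that rose were ISL1 (log2 fold change 0.38, edgeR adjusted p = 0.00130) and GATA2 (0.30, edgeR adjusted p = 0.00829). The 3 with the smallest p all fell. STMN2, a neuronal microtubule regulator, had 456.9 and 439.3 CPM in the knockdown, against 920.7 and 922.7 CPM in the controls (log2 fold change -1.04, edgeR adjusted p = 2.51e-07). The neuronal tubulin gene TUBB3 (-0.94, edgeR adjusted p = 5.69e-07) and the granule protein gene CHGA (-0.47, edgeR adjusted p = 5.70e-04) were lower as well. TH, which makes the precursor of the catecholamines, had 0.0512 and 0 CPM in the knockdown and 0.225 and 0.111 in the controls. Summed levels of the epithelial markers (4 of 6 listed) were 4.56 and 5.13 CPM in the knockdown and 5.80 and 7.91 in the controls, and those of the fibroblast markers (6 of 6 listed) 298.9 and 349.7 against 313.0 and 290.4 CPM. Summed blood markers (3 of 6 listed) were 2.31 and 1.88 CPM in the knockdown and 0.902 and 1.11 in the controls, where CD3E and HBB are not listed. CD14, the 1 blood marker that passed the count filter, rose, with 1.38 and 1.38 CPM in the knockdown against 0.394 and 0.669 CPM in the controls (1.37, edgeR adjusted p = 0.0440). LYZ had 0.769 and 0.497 CPM in the knockdown and 0.338 and 0.390 in the controls, and the pan-leukocyte marker PTPRC had at most 0.169 CPM in any library. The part of these markers in the results below was not tested.

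The mitochondrial rRNAs rose most among the 9 genes. MT-RNR1, the rRNA of the small mitochondrial ribosomal subunit, had 866.0 and 905.9 CPM in the knockdown, against 482.3 and 464.8 CPM in the controls. Each knockdown library lay far above each control, and replicates of a group differed little. By edgeR's quasi-likelihood test, its log2 fold change of 0.90 (SE 0.0739) had an adjusted p = 8.06e-07. MT-RNR2, the rRNA of the large mitochondrial subunit and the most abundant of the 9 RNAs, had 7255 and 9390.2 CPM in the knockdown, against 4253 and 4030.0 CPM in the controls. The groups again did not overlap, and the knockdown libraries differed from each other more than the controls did. Its log2 fold change was 1.01 (SE 0.110, adjusted p = 1.22e-05), a level 2.01 times that of the controls. Both rRNA genes were also called against a 1.5-fold change, as were 0.469% of the tested genes in that direction. Together they made up 28.8 and 27.2% of all mitochondrial counts in the knockdown and 18.4 and 20.2% in the controls.

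rRNA is commonly removed before a total RNA library is sequenced. The labels name an rRNA removal kit beside the Ribo-seq steps, and the sources used here do not give whether or how rRNA was removed for RNA-seq. The counts of MT-RNR1 and MT-RNR2 are therefore those left after library preparation. The 1 nuclear rRNA gene listed, RNA5-8SN2, had 5.74 and 3.64 CPM in the knockdown and 2.93 and 2.79 CPM in the controls (log2 fold change 0.72, SE 0.283, adjusted p = 0.0690). RN7SL1, an RNA of the signal recognition particle, had 21.6 and 14.3 CPM in the knockdown, against 10.5 and 7.69 CPM in the controls (0.99, SE 0.192, adjusted p = 0.00130). RN7SL2, a close copy of RN7SL1 with which it can share reads, had 28.3 and 20.1 against 15.6 and 9.36 CPM (0.96, SE 0.198, adjusted p = 0.00196). These 3 structural RNAs of the nuclear genome, named after their values were seen, were higher in both knockdown libraries than in both controls, like the mitochondrial rRNAs, but knockdown replicate 1 was the higher knockdown library in all 3 and the lower one in both mitochondrial rRNAs. The part of rRNA removal or RNA recovery in these differences was not tested.

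**Figure D1:**
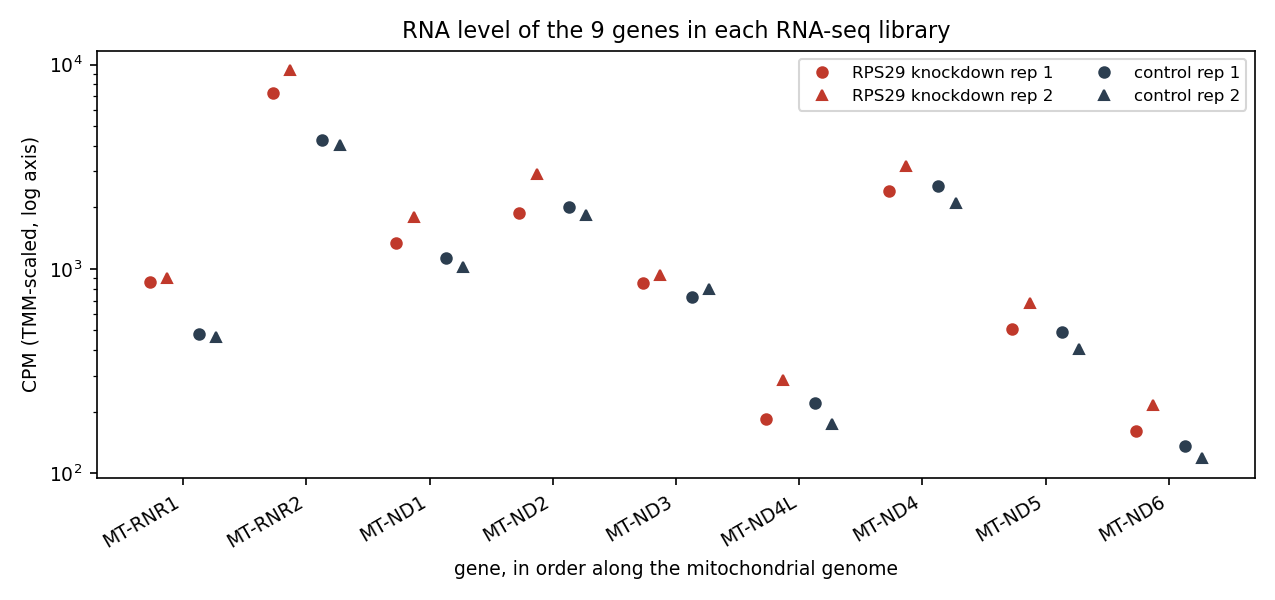
RNA level of each of the 9 genes in TMM-scaled CPM on a log axis, with the 2 knockdown libraries (red) left of the 2 control libraries (dark) and 1 point per library. Both rRNA genes sit clear of their controls, while MT-ND2, MT-ND4L and MT-ND4 overlap between groups, with knockdown replicate 1 between the controls.

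Of the 6 heavy-strand complex I genes, 3 rose, 0 fell and 3 were not called. MT-ND1, which sits where the membrane arm meets the rest of the complex and forms part of the ubiquinone site, had 1344 and 1795 CPM in the knockdown, against 1128 and 1017 CPM in the controls. The knockdown libraries were the higher ones, and the fold change was 0.55 on the log2 scale (SE 0.111, adjusted p = 0.00177). MT-ND5, an antiporter-like subunit at the far end of the membrane arm, had 509.5 and 681.7 CPM in the knockdown and 489.8 and 407.3 CPM in the controls. Its groups did not overlap, but knockdown replicate 1 and control replicate 1 were close together (log2 fold change 0.41, SE 0.116, adjusted p = 0.0147). The call of MT-ND5 ended without control replicate 2 (0.28, adjusted p = 0.190) and with DESeq2 (adjusted p = 0.217). MT-ND3, a small membrane subunit near the ubiquinone site, had 850.3 and 934.6 CPM in the knockdown and 731.9 and 797.4 CPM in the controls. Its groups did not overlap either, and its call lay at the threshold (log2 fold change 0.22, SE 0.0803, adjusted p = 0.0478). It ended without control replicate 1 (adjusted p = 0.541), without control replicate 2 (0.212) and with no filter on low counts (0.0503).

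MT-ND2, MT-ND4 and MT-ND4L did not pass the test. MT-ND2, an antiporter-like subunit, had 1876 and 2903 CPM in the knockdown, against 1999 and 1838 CPM in the controls (log2 fold change 0.32, SE 0.142, adjusted p = 0.107). MT-ND4, another antiporter-like subunit, had 2393 and 3185 CPM in the knockdown and 2536 and 2090.0 CPM in the controls (0.27, SE 0.121, adjusted p = 0.108). MT-ND4L, the small subunit read from the same mRNA, had 183.5 and 287.0 CPM in the knockdown and 219.4 and 173.3 CPM in the controls (0.26, SE 0.151, adjusted p = 0.215). In each of the 3, knockdown replicate 1 lay between the controls and knockdown replicate 2 above them. All 3 were called without knockdown replicate 1 (log2 fold changes of 0.59, 0.46 and 0.54), and MT-ND4L also without control replicate 1 (0.44). Without knockdown replicate 2 the fold changes of MT-ND2, MT-ND4 and MT-ND4L were -0.028, 0.053 and -0.093, with adjusted p = 0.726, 0.463 and 0.247 in edgeR. Scaled to total counts alone, MT-ND2 (0.39) and MT-ND4 (0.35) were called as well.

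The light-strand gene MT-ND6 rose about as much as MT-ND1. MT-ND6, a small subunit of the membrane arm, had 161.0 and 216.4 CPM in the knockdown, against 136.0 and 118.0 CPM in the controls, from 3142 and 3921 counts against 2414 and 2117. Both knockdown libraries lay above both controls. The change was 0.57 on the log2 scale (SE 0.112, edgeR adjusted p = 0.00138), or a level 1.48 times that of the controls. It was called without each of the 4 libraries in turn, with fold changes between 0.35 without knockdown replicate 2 and 0.76 without knockdown replicate 1. The labels name a stranded kit, but the sources used here do not give the strand setting of the counting. If strand was not used, heavy-strand RNA across this locus would be counted as MT-ND6, so its values carry that limit.

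Over the 9 genes, 6 rose and 0 fell, and the 6 that rose are the 6 whose knockdown libraries both lay above both controls. Over all 14723 genes tested, 14.4% were called higher and 16.3% lower, and in 32.3% both knockdown libraries lay above both controls, while in 32.9% both lay below. The median log2 fold change of the 9 was 0.41, against 0.0074 over all genes tested, and all 9 were above 0. These 9 genes share a genome and precursor RNAs, so they are not independent. CPM are relative, and each library is a mixture of whole cells. More mitochondrial RNA per cell, less of the other RNA per cell and more cells rich in mitochondrial RNA therefore cannot be told apart.

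**Figure D2:**
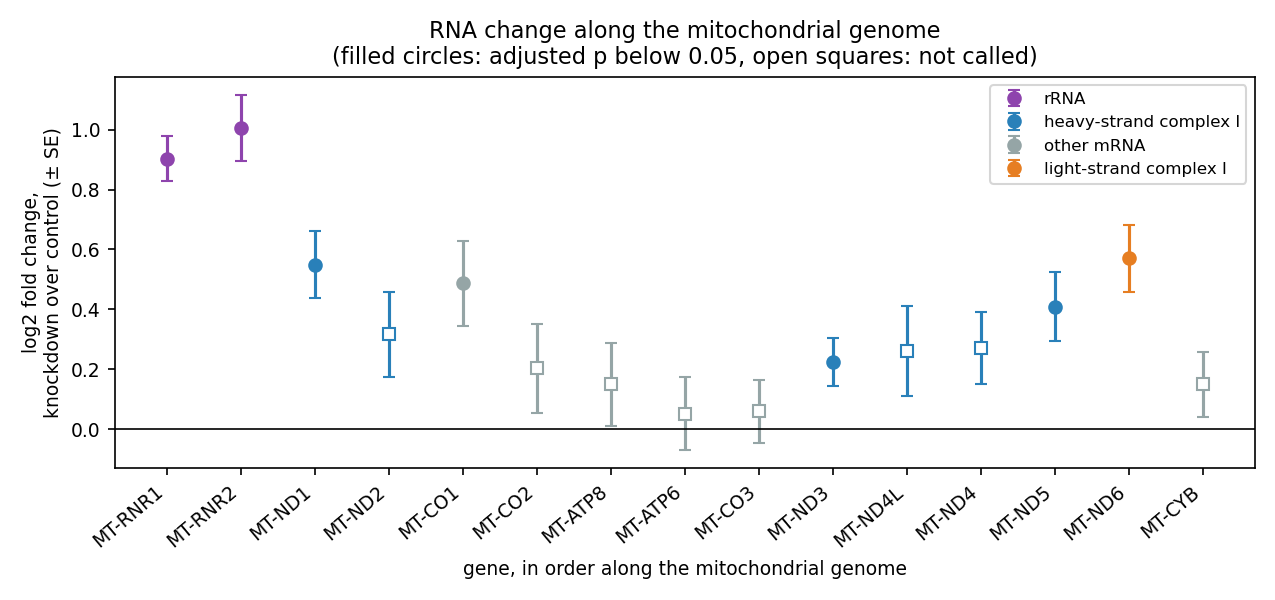
Log2 fold change of knockdown over control (± SE from the fit across all genes) for the 15 rRNA and mRNA genes in the order of the mitochondrial genome, coloured by set, with filled circles for genes called at an adjusted p below 0.05 and open squares for the others. The rRNAs are highest (0.90 and 1.01), MT-ND6 (0.57) lies beside MT-ND1 (0.55) and MT-CO1 (0.49), and MT-ATP6 (0.052) and MT-CO3 (0.060) are lowest.

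Ratios within a library set the strands against each other without any scaling between libraries. For every count of the 6 heavy-strand complex I genes together, MT-ND6 had 0.0225 and 0.0221 counts in the knockdown, against 0.0191 and 0.0187 in the controls. On the log2 scale the ratio averaged -5.49 ± 0.0179 in the knockdown and -5.73 ± 0.0262 in the controls (SD, n = 2 each). The difference of 0.24 was larger than the spread within either group, and the groups did not overlap, but the exact two-sided permutation test gave p = 0.333, the smallest that 2 against 2 libraries can give. An edgeR fit over all genes with those 6 genes as library size did not call MT-ND6 (0.24, SE 0.332, adjusted p = 0.743), nor either rRNA gene. This scaling carries the mitochondrial share of each library into every nuclear gene. The SE of MT-ND6 was 0.112 with TMM, so the lack of a call in this fit decides little about the ratios. That scaling called 0.224% of genes higher and 3.82% lower.

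The strand did not separate MT-ND6 from each heavy-strand gene alike. Against MT-ND1 the log2 ratio of MT-ND6 was -3.06 and -3.05 in the knockdown and -3.05 and -3.11 in the controls, so the groups overlapped and differed by 0.023. Against MT-ND5, its neighbour on the opposite strand, it was -1.66 and -1.66 in the knockdown and -1.85 and -1.79 in the controls, a difference of 0.16. Against MT-ND2, MT-ND3, MT-ND4 and MT-ND4L the differences were 0.27, 0.34, 0.30 and 0.32, each without overlap. Among the other heavy-strand mRNAs, the groups overlapped against MT-CO1 (difference 0.079). Against MT-CO2, MT-CYB, MT-ATP8, MT-CO3 and MT-ATP6 the differences were 0.39, 0.41, 0.43, 0.50 and 0.52, each without overlap. MT-ND1 set against the other 5 heavy-strand complex I genes gave a difference of 0.26 without overlap, close to that of MT-ND6 against all 6. Against the heavy-strand rRNAs the direction turned: MT-ND6 per MT-RNR1 count differed by -0.34 and per MT-RNR2 count by -0.44.

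The rRNAs stood higher against the mRNAs of the same strand in both knockdown libraries than in both controls. MT-RNR1 and MT-RNR2 together had 1.13 and 1.05 counts in the knockdown for every count of the 6 heavy-strand complex I genes, against 0.667 and 0.711 in the controls. The log2 ratio averaged 0.13 ± 0.0771 in the knockdown and -0.54 ± 0.0657 in the controls (SD, n = 2 each), a difference of 0.67 without overlap (exact two-sided permutation p = 0.333, again the smallest possible). It lay between 0.61 and 0.72 without each library in turn, and was 0.72 without knockdown replicate 2. The edgeR fit scaled to those genes, with the limit given above, gave 0.67 (SE 0.306, adjusted p = 0.222). The rRNAs themselves did not part in a like way: MT-RNR2 had 8.38 and 10.4 counts per MT-RNR1 count in the knockdown, against 8.82 and 8.67 in the controls. These groups overlapped (log2 difference 0.092, exact two-sided permutation p = 1), and the difference was -0.062 without knockdown replicate 2. With 3 such ratios tested at the smallest p of 0.333, adjustment over them cannot bring any below the threshold.

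**Figure D3:**
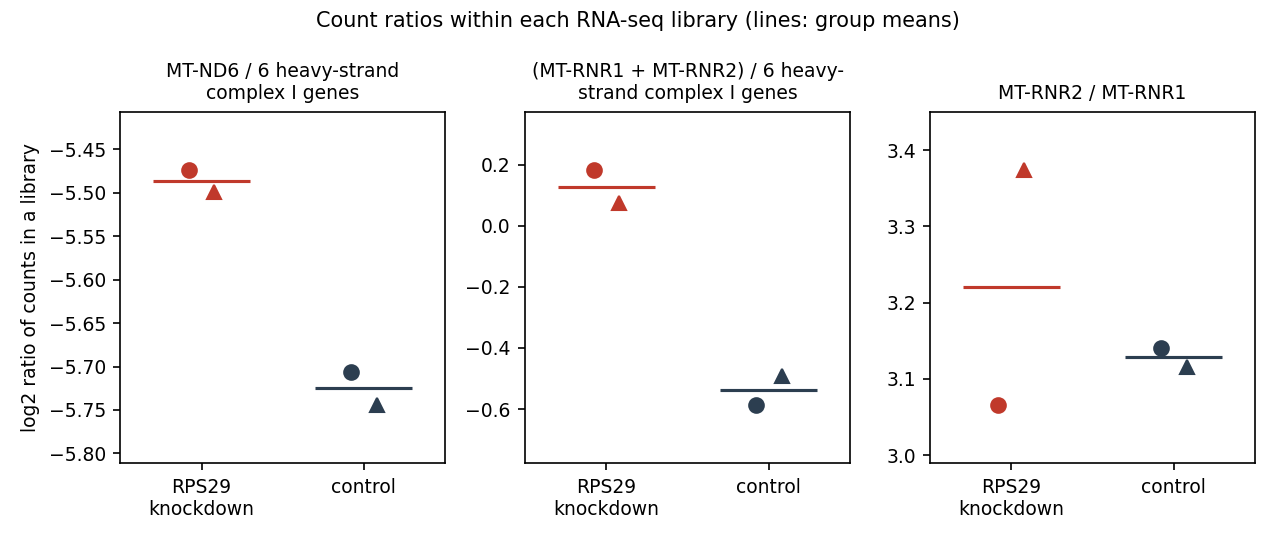
Log2 count ratios within each RNA-seq library, with knockdown (red) left of control (dark), 1 point per library and a line at each group mean. The ratio of MT-ND6 to the heavy-strand complex I genes and that of the rRNAs to the same genes do not overlap between groups (differences of 0.24 and 0.67), while MT-RNR2 to MT-RNR1 overlaps.

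Levels per length ordered the 9 RNAs in nearly the same way in both groups. In CPM per kilobase of gene, MT-RNR2 was highest with 4653 and 6023 in the knockdown and 2728 and 2585 in the controls. MT-ND3 followed with 2458 and 2701 in the knockdown and 2115 and 2305 in the controls, then MT-ND2 (1801 and 2786 against 1918 and 1764), MT-ND4 (1737 and 2311 against 1840.0 and 1517) and MT-ND1 (1406 and 1878 against 1180.3 and 1064). In the knockdown the ranges of neighbours from MT-ND3 to MT-ND1 overlapped, and in the controls those of MT-ND2 and MT-ND4 did. MT-RNR1 lay at 907.8 and 949.6 CPM per kilobase in the knockdown, against 505.6 and 487.2 in the controls. MT-ND4L lay at 617.9 and 966.3 in the knockdown and 738.6 and 583.5 in the controls, so MT-RNR1 was below MT-ND4L in both control libraries and in knockdown replicate 2, and above it in knockdown replicate 1.

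MT-ND6 and MT-ND5 were the lowest per length. MT-ND6 had 306.7 and 412.1 CPM per kilobase in the knockdown and 259.1 and 224.8 in the controls, and MT-ND5 had 281.2 and 376.2 in the knockdown and 270.3 and 224.8 in the controls. MT-ND6 ranked above MT-ND5 in both knockdown libraries, below it in control replicate 1 and level with it in control replicate 2, with overlapping ranges in each group. MT-ND4L and MT-ND4, with lengths of 297 and 1378 bases, are read from a shared mRNA. Without regard to length, MT-ND4L had 0.0767 and 0.0901 counts per MT-ND4 count in the knockdown. In the controls it had 0.0865 and 0.0829, so the groups overlap. Reads that cover both of these overlapping genes may be split or dropped, depending on the counting, so the level of MT-ND4L is uncertain.

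**Figure D4:**
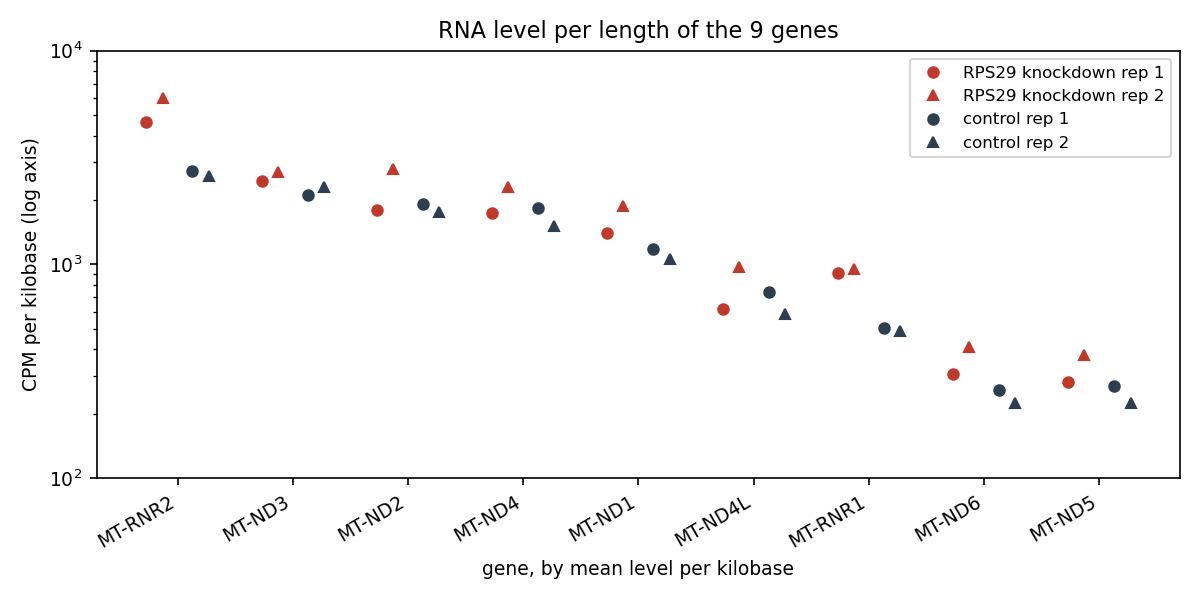
RNA level per length of the 9 genes in CPM per kilobase on a log axis, ordered by the mean over 4 libraries, with knockdown libraries (red) left of controls (dark). MT-RNR2 leads in every library, and MT-ND6 and MT-ND5 are lowest.

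Single libraries decided the size of the mRNA changes but not of the MT-RNR1 change. Relative to the mean of the controls, the 9 genes stood at 0.935 to 1.83 times in knockdown replicate 1 and at 1.22 to 2.27 times in knockdown replicate 2. MT-RNR1 stood at 1.83 times in knockdown replicate 1 and 1.91 times in replicate 2, and MT-RNR2 at 1.75 and 2.27 times. MT-ND6 stood at 1.27 and 1.70 times and MT-ND1 at 1.25 and 1.67 times. Of the 9 genes, 9 were called higher with knockdown replicate 1 left out, 6 with knockdown replicate 2 left out, and 6 and 4 with control replicates 1 and 2 left out. Over all genes, those shares were 14.96 and 18.1% without knockdown replicate 1 and 2, and 8.09 and 8.15% without control replicate 1 and 2. Where an arm has 1 library left, that library is assumed to vary like the other group. The SE of MT-ND1 was then 0.0513 and 0.0527 with knockdown replicate 1 or 2 left out, and 0.171 and 0.170 with control replicate 1 or 2 left out. Without knockdown replicate 2 the median log2 fold change of the 9 was 0.19, MT-ND1 was at 0.33 and MT-ND5 at 0.19.

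**Figure D5:**
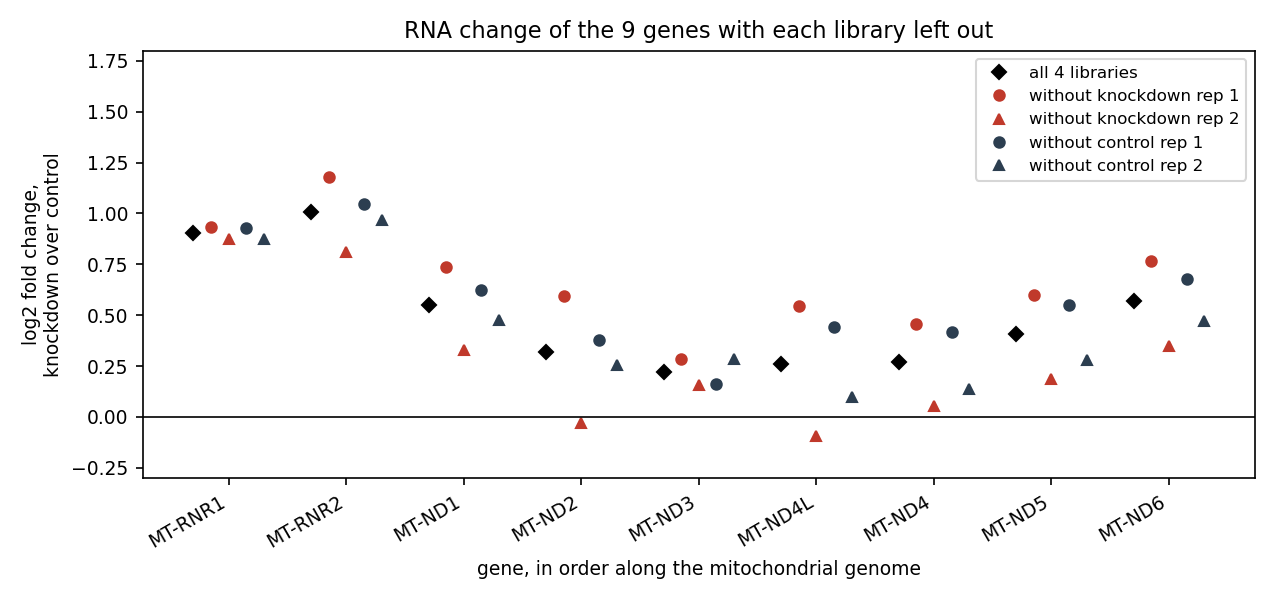
Log2 fold change of each of the 9 genes with all 4 libraries (black) and with each library left out (red, a knockdown library left out; dark, a control). MT-RNR1 stays between 0.87 and 0.93, whereas MT-ND2 and MT-ND4L lie at -0.028 and -0.093 without knockdown replicate 2.

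Of the 6 other mRNA genes of mitochondrial DNA, all on the heavy strand, 1 rose (16.7%, against 14.4% of all genes tested) and 0 fell, with a median log2 fold change of 0.15. MT-CO1, the catalytic subunit of cytochrome c oxidase, had 5813 and 8112 CPM in the knockdown and 5624 and 4313 CPM in the controls (0.49, SE 0.141, adjusted p = 0.0167). MT-CYB of complex III (0.15, adjusted p = 0.326), MT-CO2 (0.20, 0.335) and MT-CO3 (0.060, 0.710) of cytochrome c oxidase, and MT-ATP8 (0.15, 0.450) and MT-ATP6 (0.052, 0.789) of ATP synthase were not called. The call of MT-CO1 was lost without control replicate 2 and with DESeq2, where 0 of the 6 were called higher. Relative to the mean of the controls, the 6 stood at 0.867 to 1.17 times in knockdown replicate 1. In knockdown replicate 2 they stood at 1.15 to 1.63 times. Against the 6 heavy-strand complex I genes within a library, MT-ATP6 had log2 ratios of -2.47 and -2.45 in the knockdown, against -2.16 and -2.18 in the controls, a difference of -0.29. The differences of MT-CO3, MT-ATP8, MT-CYB and MT-CO2 were -0.27, -0.19, -0.17 and -0.15. That of MT-CO1 was in the other direction (0.16), and none of the 6 overlapped between groups. Without the rRNA genes the mitochondrial share of counts was 2.04 and 2.85% in the knockdown and 2.05 and 1.72% in the controls, so these ranges overlap.

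Other transcripts of the same DNA had few counts in these libraries, and the part of library preparation in that was not tested. Of the 22 mitochondrial tRNAs 3 are listed, MT-TC and MT-TS1 on the light strand and MT-TL1 on the heavy strand, with at most 8 counts in a library, and 0 passed the count filter. Nuclear copies of mitochondrial genes can share reads with their sources. MTND2P28, the copy of MT-ND2 with most counts, had 233 and 324 counts in the knockdown and 243 and 220 in the controls (log2 fold change 0.20, adjusted p = 0.422), beside 36617 to 52616 and 32972 to 35474 counts of MT-ND2. MTND1P23 had 79 and 75 counts in the knockdown and 58 and 44 in the controls (0.52, adjusted p = 0.172), and MTND4P12 had 46 and 72 against 61 and 54 (-0.031, adjusted p = 0.953). MTATP6P1 had 1459 and 1906 against 1594 and 1376 counts (0.11, adjusted p = 0.548), and MTCO1P12 at most 21 in a library (-0.19, adjusted p = 0.797).

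Of the 37 nuclear genes for complex I subunits 8 rose (21.6%) and 1 fell, with a median log2 fold change of 0.080. Over all genes tested 14.4% rose and 16.3% fell. The share of nuclear subunits called higher did not stay above that of all genes with each library left out. The shares of all genes in those fits are given above. NDUFB9, an accessory subunit of the membrane arm, had 176.4 and 154.9 CPM in the knockdown and 104.4 and 106.5 CPM in the controls (0.65, SE 0.0784, adjusted p = 2.74e-05). NDUFS5, another accessory subunit, fell, with 143.8 and 123.9 CPM in the knockdown against 215.2 and 251.8 CPM in the controls (-0.80, SE 0.0899, adjusted p = 1.44e-05). NDUFA13, also known as GRIM-19, had 248.8 and 210.9 against 183.1 and 178.1 CPM (0.35, adjusted p = 0.00470). The difference between the nuclear and the mitochondrial genes was not tested. The count of nuclear genes higher moved with either knockdown library left out, and so did that over all genes. With control replicate 1 left out 3 were higher, and with control replicate 2 left out 2. These 2 counts stand against 8.09 and 8.15% of all genes called higher in the same fits. Of 21 complex I assembly factors 3 rose and 0 fell (median 0.081). This share of 14.3% higher is that of all genes tested (14.4%). The 3 are NDUFAF8 (0.58), NDUFAF2 (0.49) and NDUFAF4 (0.39). Without knockdown replicate 2 there were 7 higher.

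The nuclear genes that make and read mitochondrial RNA are given as counts against the 14.4% of all genes that rose and the 16.3% that fell. Of 10 genes of mitochondrial transcription, 2 rose (20.0%) and 0 fell (median 0.14), namely SLIRP, which stabilises mitochondrial mRNAs with LRPPRC, at 0.58, and the DNA helicase TWNK at 0.23, with the ribosomal protein MRPL12 at 0.21 not called (adjusted p = 0.0572). Of 22 tested genes of mitochondrial RNA processing and decay, 10 rose (45.5%) and 2 fell (median 0.15). PNPT1, the mitochondrial polynucleotide phosphorylase, had 69.0 and 67.2 CPM in the knockdown and 47.2 and 45.5 CPM in the controls (0.55, SE 0.0802, adjusted p = 1.30e-04). PTCD1, a pentatricopeptide repeat protein, rose (0.74), and PRORP, the nuclease that cuts precursors at the start of tRNAs, fell to 27.7 and 25.5 CPM in the knockdown, against 42.1 and 44.5 CPM in the controls (-0.70, SE 0.0959, adjusted p = 8.06e-05). Of 25 genes of mitochondrial rRNA modification and ribosome assembly, 7 rose (28%) and 1 fell (median 0.22). NGRN, which is required for the mitochondrial large-subunit rRNA, had 343.1 and 312.0 CPM in the knockdown and 197.5 and 209.7 CPM in the controls (0.69, SE 0.0743, adjusted p = 1.10e-05), beside GTPBP10 (0.53) and the rRNA methyltransferase MRM2 (0.39).

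Of 15 tested mitochondrial translation factors, 9 rose (60.0%) and 0 fell (median 0.25), led by the release factor homologue MRPL58 (0.65), the initiation factor MTIF2 (0.58) and the release factor homologue MTRF1L (0.50). Of 21 genes of mitochondrial DNA maintenance, 10 rose (47.6%) and 2 fell (median 0.23), with ATAD3B at 0.63, its close paralog ATAD3A at 0.44 and RRM2B, a ribonucleotide reductase subunit and known p53 target, at 0.43. Reads of ATAD3A and ATAD3B can be shared. Of 9 tested biogenesis regulators, 2 rose (22.2%) and 0 fell (median 0.16), the coactivator PPRC1 (0.35) and the nuclear receptor ESRRA (0.32), and SIRT1 was at 0.21 and not called (adjusted p = 0.0970). TWNK and SLIRP each stand in a pair of these lists. Single libraries moved several of these counts, and also the share of all genes called higher, which was 8.09 and 8.15% without control replicate 1 and 2 and 14.96 and 18.1% without knockdown replicate 1 and 2. With control replicate 1 left out, the genes higher were 1 for transcription, 5 for RNA processing, 5 for translation factors, 6 for DNA maintenance and 1 for biogenesis. With control replicate 2 left out they were 1 for transcription, 6 for RNA processing, 4 for rRNA modification and 4 for DNA maintenance. With knockdown replicate 2 left out they were 5 for transcription and 12 for rRNA modification, and with knockdown replicate 1 left out 4 for biogenesis. Counts of genes lower also moved in the RNA processing, rRNA modification and DNA maintenance lists, and so did those over all genes.

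The profile of MT-ND6 over the 4 libraries, as log2 CPM minus its own mean, was 0.066 and 0.49 in the knockdown and -0.18 and -0.38 in the controls. Among 10248 genes outside the mitochondrial genome with at least 10 CPM, the nearest by Euclidean distance were DRAM1, an autophagy regulator induced by p53 (distance 0.0597), TMEM87B (0.0880), RELB, an NF-kB subunit (0.0936), LINC02593 (0.104) and LYPD1 (0.107). The mean profile of the 6 heavy-strand complex I genes was -0.060 and 0.38 in the knockdown and -0.076 and -0.25 in the controls. Its nearest genes were EPHA2, a receptor tyrosine kinase (0.0818), ZBTB48, a telomere-binding zinc finger protein (0.0924), MELTF (0.0929), MAPK12, a p38 kinase (0.0930), and the matrix protein TNC (0.0949). MT-ND6 lay 0.237 from the heavy-strand mean. With 4 libraries many genes lie close by, so this measure only describes.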

How the data were processed

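The deposited RNA-seq and Ribo-seq tables hold whole-number counts per gene symbol, with 1 column per library and no normalization, and every gene has a total of at least 3 counts. The submitters' processing notes name STAR, featureCounts, Salmon, Bowtie2 and Trim Galore with the build hg38. The sources used here do not give versions, annotation, strand setting or how reads shared by genes or nuclear copies were treated. RNA-seq libraries were made from total RNA with a stranded kit and read from both ends, per the labels' protocols. Positions and lengths come from the RefSeq table of GRCh38.p14, in which all 15 mitochondrial rRNA and mRNA genes were matched.

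In R 4.3.3, counts were tested with edgeR 4.0.16 by quasi-likelihood (TMM, filterByExpr, Benjamini-Hochberg over 14723 genes, threshold 0.05). Each SE is the size of the log2 fold change over the root of its F statistic. Ratios used two-sided exact permutation tests. Simulated counts for this comparison had 14538 genes tested. The test recovered 70.1% of 67 genes changed 1.5-fold, 77.6% of 67 at 2-fold and 97.0% of 66 at 4-fold, with 14 false calls. Far larger shares were called in the real data (14.4% higher and 16.3% lower), so these rates may not carry over. Alternatives were RLE, total counts, scaling without mitochondrial genes, DESeq2 1.42.0, voom of limma 3.58.1, other filters, a replicate block and single libraries left out.

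The members and gene lists were chosen with earlier results of these data known. Named genes are the 9 members, the 6 other mitochondrial mRNA genes, RPS29, the 3 genes with the smallest p in each list, the 5 nuclear copies with most counts and the 5 genes nearest in profile to MT-ND6 and to the heavy-strand mean. Marker genes and structural RNAs are named as checks.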

Additional observations from a re-analysis of the deposited data

How the results depend on the processing

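RLE factors, scaling without the mitochondrial genome, limma-voom and a minimum of 50 counts in all 4 libraries changed no call of the 9 genes. MT-RNR1 and MT-RNR2 were called in all 13 alternatives, and MT-ND1 and MT-ND6 in 12. The DESeq2 calls of MT-ND1 (DESeq2 adjusted p = 0.0428) and MT-ND6 (0.0481) lay close to the threshold. Against a 1.5-fold change 2 of the 9 were called, MT-ND1 (0.55), MT-ND3 (0.22), MT-ND5 (0.41) and MT-ND6 (0.57) were not (adjusted p = 1), and 0 genes of each other mitochondrial or complex I list were called in either direction (the marker lists were not run). With total counts alone MT-ND2 (0.39, adjusted p = 0.0466) and MT-ND4 (0.35, 0.0403) were called, and nuclear complex I, assembly, rRNA modification and biogenesis genes higher numbered 13, 7, 14 and 4 and DNA maintenance genes lower 1. Over all genes that scaling gave 3002 higher and 1777 lower, against 2126 and 2396 with TMM. With DESeq2 MT-ND5 (0.41, 0.217) was not called, other mitochondrial mRNAs and rRNA modification genes higher numbered 0 and 4, and DNA maintenance genes lower 1. Calls over all genes also fell with DESeq2, to 1589 higher (10.8%) and 1911 lower. Without a filter MT-ND3 (0.22, 0.0503) was not called. The causes were not tested.

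The replicate block gave 5 of the 9 higher, with MT-ND3 not called (0.22, 0.148). Nuclear complex I, other mitochondrial mRNA and transcription genes higher numbered 4, 0 (MT-CO1 not called) and 1. Calls over all genes also fell with the block, to 1764 higher and 2048 lower, against 2126 and 2396 without it. The replicate numbers share only a number: deviations of knockdown and control replicate 1 correlated at -0.064 across genes, with 2 pairs. Without control replicate 1, control replicate 2 or each knockdown library, log2 fold changes ranged from 0.33 to 0.74 (MT-ND1), -0.028 to 0.59 (MT-ND2), 0.16 to 0.29 (MT-ND3), 0.053 to 0.46 (MT-ND4), -0.093 to 0.54 (MT-ND4L), 0.19 to 0.60 (MT-ND5), 0.35 to 0.76 (MT-ND6), 0.87 to 0.93 (MT-RNR1) and 0.81 to 1.18 (MT-RNR2). The ratio difference of MT-RNR2 to MT-RNR1 ranged from -0.062 to 0.25. Genes higher ranged from 4 to 9 (the 9 genes), 2 to 18 (nuclear complex I), 2 to 7 (assembly), 0 to 6 (other mRNAs), 1 to 5 (transcription), 5 to 11 (RNA processing), 4 to 12 (rRNA modification), 5 to 11 (translation), 4 to 13 (DNA maintenance) and 1 to 4 (biogenesis). Genes lower ranged from 1 to 2 (nuclear complex I), 0 to 3 (other mRNAs), 1 to 4 (RNA processing), 1 to 2 (rRNA modification) and 1 to 4 (DNA maintenance).

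The ratio difference of MT-ND6 was 0.30 against MT-ND4 alone, 0.28 against the 12 heavy-strand mRNA genes and 0.16 against MT-ND5 alone, and that of the rRNAs was 0.59 against MT-ND5 alone. The 2 comparisons with MT-ND5 were chosen after seeing the data.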
